A study of Arabidopsis thaliana with 6 samples.

Results

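A group of 142 nuclear genes of Arabidopsis thaliana pollen went down in 2 steps, from wild type to the TF1 insertion line and again from the TF1 line to the TF2 insertion line. They were chosen by their signals on the arrays, among the 13421 probe sets assigned to 1 nuclear gene, of 22810 probe sets in all. A gene entered when both wild-type arrays read at least 100, mean TF1 was at most 0.6 of mean wild type and mean TF2 was below 0.5 of mean TF1. Both TF1 arrays also had to lie below both wild-type arrays and above both TF2 arrays. The rule left out 11 genes by name, of which 7 met its thresholds: SWEET8, EXLA1, XTH19, LHCB4.2, ALDH10A8, AT2G19970 and LCR69. Since these signals chose the members, the order of the 3 groups and the sizes of both steps are a description of the set and support nothing.

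The study measured total RNA of mature pollen on 6 Affymetrix ATH1 arrays, 2 per group, under a title on transcription factors of the male gametophyte. The groups were wild-type Col-0, the line SAIL_1168_C11 (here the TF1 line) and the line SALK_018864 (here the TF2 line). The labels give Col-0 as the genetic background of all 3 groups and growth stage 6.00, and describe compost-grown plants kept at 21 °C and 75% humidity. Each mutant group was a single insertion line, so an effect of the insertion and of anything else that the line carries cannot be told apart. Whether a line was homozygous, and whether replicates came from separate plants, the labels do not say. The p-values rest on the spread between the 2 samples within a group, pooled over the 3 groups. That spread was also drawn towards a trend with signal level over all probe sets tested. Part or all of it may be technical.

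Pollen of flowering plants holds a large vegetative cell, which grows the pollen tube, and inside it the sperm cells. Ribosomes are built from ribosomal RNA and many small proteins, and plants encode each of these proteins by several near-identical gene copies. Maturing pollen stores transcripts and dries out before it is shed, and genes for wall enzymes, for respiration and for late embryogenesis abundant (LEA) proteins, which protect cells during drying, are among those it uses. Changes are measured here in a bulk sample, in which fewer cells of a type and less RNA per cell cannot be told apart.

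The deposited values are linear intensities, scaled so that the mean after trimming 2% at each end was 100 on every array. Over all probe sets the median signal was 38.1 and 43.0 in wild type, against 33.6 and 37.2 for TF1 and 35.6 and 37.4 for TF2. From general knowledge, not from the labels, SALK_018864 carries its insertion in BZIP34, which encodes a transcription factor of pollen. For SAIL_1168_C11 no target gene is named in the sources used here. BZIP34 read 35.5 and 55.7 in Col-0 pollen, 27.7 and 59.8 in TF1 pollen and 128.2 and 123.1 in TF2 pollen. Whether its probes lie before or after the insertion is unknown, and the labels therefore cannot be checked with it. The 15 probe sets of pollen vegetative cell markers summed to 14414 and 13513 in Col-0 pollen, 23367 and 22490 in TF1 pollen and 28701 and 24714 in TF2 pollen, with ANX2, a receptor kinase of the pollen tube, the brightest of them in wild type and in the TF1 line and SETH6 and SETH1 near the lower end of the scale.

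Across the 142 members the median signal was 204 and 211 in wild type, 87.3 and 89.1 for TF1, and 22.3 and 23.3 for TF2. As the floor of 100 required, the median member in wild type lay above the median of all probe sets. In the TF2 line, where the rule capped the signal relative to TF1, the median member lay below it. Wild-type signals ran from 100.4 to 3525 on the first array, with means above 1000 in 7 members and under 200 in 69. TF1 means were 9.38% to 59.9% of wild type (median 42.1%), and TF2 means were 3.65% to 49.4% of TF1 (median 33.3%). Relative to wild type the TF2 means were 0.692% to 26.7% (median 12.9%), and 53 members were under 10% of wild type. The second step was the larger ratio in 102 members and the first in 40.

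**Figure D1:**
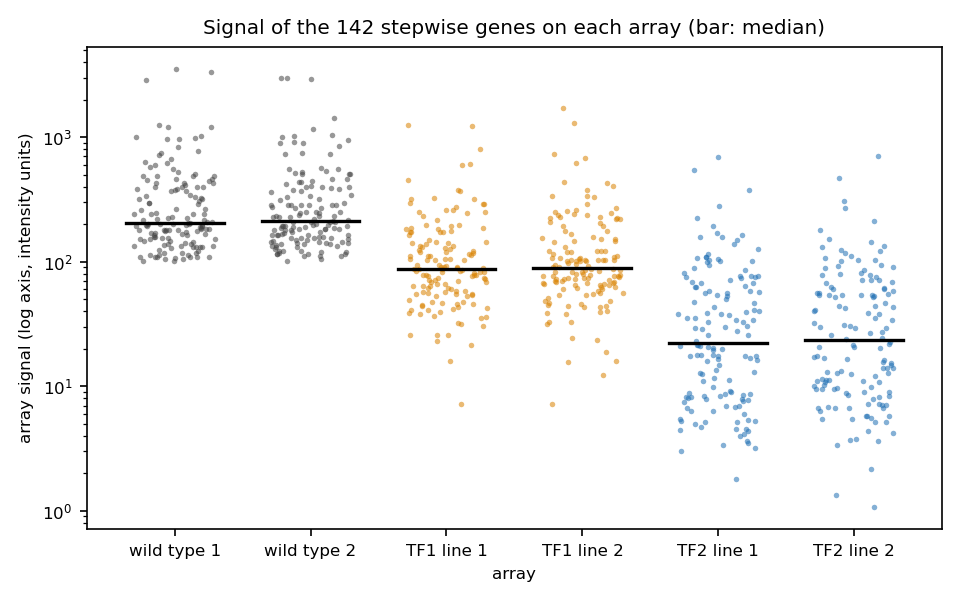
Signal of the 142 members on each of the 6 arrays, with array signal in intensity units on a log axis and the arrays grouped as wild type, TF1 line and TF2 line. The medians were 204 and 211, 87.3 and 89.1, and 22.3 and 23.3. The medians of replicate arrays lay close together, while single members differed more between replicates, most of all in the TF2 line.

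Replicate spread grew as signals became dim. The ratio of the higher to the lower replicate had a median of 1.13 in wild type, 1.37 for TF1 and 1.74 for TF2. It was above 2 in 1 member in wild type, 18 for TF1 and 59 for TF2, where it reached 17.3. On the TF2 arrays 43 and 40 members were below the lower quartile of all probe sets, 20 of them on both arrays, so their size of change rests on signals near the lower end of the scale.

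When the 3 groups were put through the same thresholds in every order, without leaving out genes, 149 nuclear genes went from wild type through TF1 to TF2. The order wild type, TF2, TF1 held 14, TF1, wild type, TF2 held 12, TF2, TF1, wild type held 10, TF2, wild type, TF1 held 4 and TF1, TF2, wild type held 0. Of probe sets of any kind 406 met the thresholds. Among them were 46 of the 69 assigned to 1 plastid gene and 2 of the 23 assigned to 1 mitochondrial gene. For nuclear genes these were 149 of 13421, of which only 2382 reached the wild-type floor of the rule and could qualify. The pattern was more frequent among plastid genes against either nuclear count. How many plastid probe sets reached the floor is not given here, so the size of this contrast among probe sets that could qualify is unknown. The rest of the 406 were 208 with several genes or none listed, and 1 of 64 array controls, that for 5S ribosomal RNA.

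Members were also fitted with all probe sets in limma on log2(signal + 10.3), a scale that understates the change of dim genes. The filter on dim probe sets kept 137 of the 142. Those not kept were AT1G68440, AT5G44320, AT3G01830, RALFL22 and AT3G22060. In TF1 against wild type 69 members were called lower at a Benjamini-Hochberg adjusted p of 0.05, where 9.64% of all 11373 probe sets tested were. In TF2 against wild type 137 were called lower, against 16.0% of all, and in TF2 against TF1 58 were, against 3.8% of all. Of the members 0 were called higher in any of the 3 comparisons, where 11.9%, 14.8% and 0.853% of all were. The rule used each of these contrasts, so nothing is read from the members' shares. Median log2 changes of the 137 were -1.14, -2.60 and -1.34 in that order, beside -0.02, 0.05 and 0.02 over all probe sets tested. The first 2 of these comparisons share their wild-type arrays. Without the intensity trend in limma the members called lower numbered 16, 130 and 17. Without wild type replicate 1 they were 22, 113 and 24 of 131 tested, and without wild type replicate 2 they were 21, 111 and 23 of 134. Without TF1 line replicate 1 they were 33, 139 and 22 of 139, and without TF1 line replicate 2 44, 139 and 20. For TF1 against wild type quantile normalization left 45 called. The fit on the 4 arrays of a comparison alone called 118 of 142 tested for TF1 against wild type and 19 of 107 for TF2 against TF1.

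The brightest members included genes of LEA, secreted pollen and ribosomal proteins. Roles given here for genes known by locus code come from general knowledge of the species' annotation, not from the deposited files. Of the 142 members 60 are in none of the role groups used below, though a family or function is named for some of them. Calls named for single members come from the contrasts the rule used, and nothing is read from how many of a role passed. AT1G52680, for which no role is given here, had the highest wild-type signals, with 3525 and 2979.7 in Col-0 pollen, 1255 and 1724 in TF1 pollen and 692 and 708 in TF2 pollen. AT5G53820, of a LEA protein family, read 3341 and 3006 in Col-0 pollen, 1221 and 1303 in TF1 pollen and 544 and 470.3 in TF2 pollen. For both genes the replicates were close. The fitted change of AT5G53820 in TF2 against wild type was -2.62 on the log2 scale (SE 0.13, limma adjusted p = 9.28e-08).

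AT1G78040, of the Ole e 1 family of secreted pollen proteins, had signals of 2878 and 2908 in Col-0 pollen, 607 and 684 in TF1 pollen and 194 and 211 in TF2 pollen. Its first step left 22.3% of wild type and its second 31.3% of TF1, so the first was the larger. The change in TF2 against wild type was -3.77 (SE 0.14, limma adjusted p = 1.67e-08). AT1G09310, which encodes a protein of the DUF538 family, went from 1027 and 1165 in Col-0 pollen to 124 and 101 in TF1 pollen and 67.7 and 13.1 in TF2 pollen. Most of its change lay in the first step, and its TF2 replicates differed widely. The difference between the lines was -1.52 and did not pass the threshold (limma adjusted p = 0.072).

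The other LEA-type members were AT4G13230, with 1209 and 1035 in Col-0 pollen, 592 and 619.7 in TF1 pollen and 279 and 267 in TF2 pollen, and AT2G23120, with 836 and 842 in Col-0 pollen, 291 and 236 in TF1 pollen and 100.1 and 77.5 in TF2 pollen. The 3 LEA-type members kept 10.6% to 24.3% of wild-type signal in the TF2 line. AT5G39570 and AT5G52390 complete the bright members without a role given. The first read 1003 and 895 in Col-0 pollen, 288 and 373 in TF1 pollen and 171 and 60.2 in TF2 pollen. The second read 975 and 909 in Col-0 pollen, 377 and 406 in TF1 pollen and 163 and 112 in TF2 pollen. The TF2 replicates of AT5G39570 were farther apart than those of AT5G52390.

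**Figure D2:**
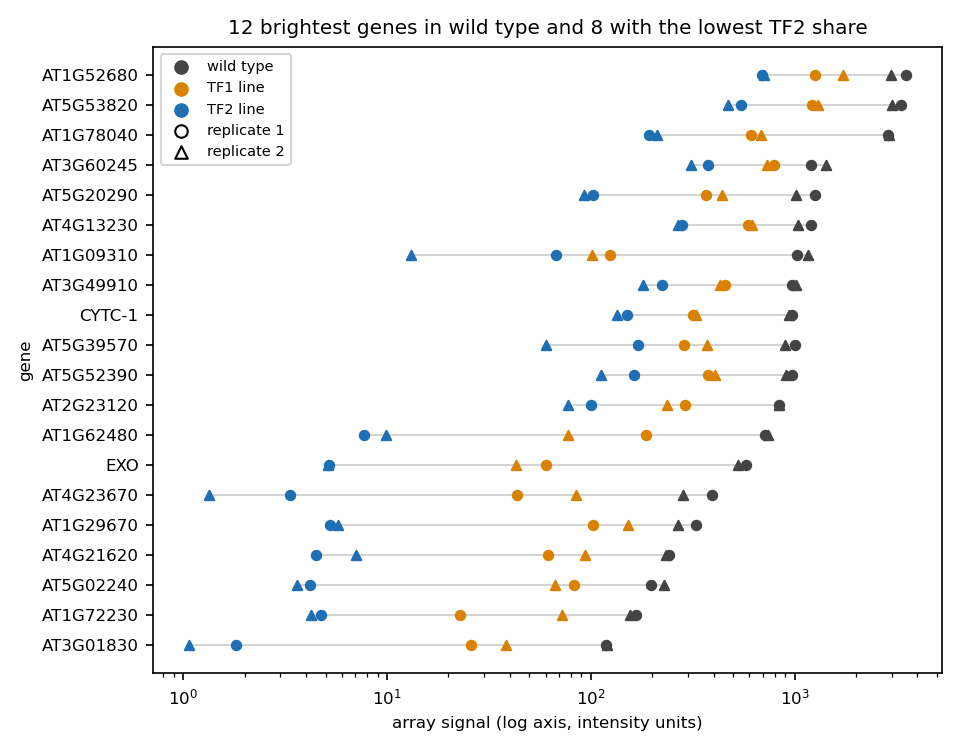
Signals of selected members on each array, in intensity units on a log axis, with a point per array and colours for wild type, the TF1 line and the TF2 line. AT1G78040 went from 2878 and 2908 to 194 and 211, and EXO from 574 and 528 to 5.21 and 5.13.

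The members with the least signal left in the TF2 line belonged to several families. AT4G23670, of the major latex protein and Bet v 1 family, read 394 and 283 in Col-0 pollen, 43.6 and 84.8 in TF1 pollen and 3.35 and 1.34 in TF2 pollen, so that TF2 held 0.692% of wild type. EXO, a wall-located protein of cell expansion that responds to brassinosteroid hormones, read 574 and 528 in Col-0 pollen, 60.5 and 43.0 in TF1 pollen and 5.21 and 5.13 in TF2 pollen. Its steps were nearly equal, with 9.38% of wild type left in TF1 and 9.99% of TF1 left in TF2. The TF2 change of EXO was -5.18 (SE 0.38, limma adjusted p = 1.53e-06), and it passed the threshold in the other 2 comparisons too.

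AT3G01830, an EF-hand calcium-binding protein gene, read 118 and 120.0 in Col-0 pollen, 26.0 and 38.4 in TF1 pollen and 1.81 and 1.07 in TF2 pollen, and the filter did not keep it. AT1G62480, related to a vacuolar calcium-binding protein, read 712 and 738 in Col-0 pollen, 187 and 77.2 in TF1 pollen and 7.74 and 9.92 in TF2 pollen. Its TF1 replicates differed by more than 2-fold, yet both lay far from either of the other groups. The change of AT1G62480 was -2.48 in TF1 and -5.26 in TF2 against wild type (limma adjusted p = 0.00053 and 1.13e-06).

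AT1G29670, a GDSL lipase family gene, read 327 and 268 in Col-0 pollen, 103 and 152 in TF1 pollen and 5.23 and 5.76 in TF2 pollen. This gene kept 42.8% of wild type in TF1 but 4.32% of TF1 in TF2, so most of its change lay in the second step. AT5G02240, of the NAD(P)-binding Rossmann-fold family, read 198 and 228 in Col-0 pollen, 83.1 and 66.8 in TF1 pollen and 4.17 and 3.60 in TF2 pollen, AT4G21620, which encodes a glycine-rich protein, read 242 and 233 in Col-0 pollen, 61.8 and 93.7 in TF1 pollen and 4.51 and 7.07 in TF2 pollen, and AT1G72230, a cupredoxin-family gene, read 166 and 155 in Col-0 pollen, 22.9 and 72.5 in TF1 pollen and 4.75 and 4.24 in TF2 pollen. On the TF2 arrays all 4 of these genes lay below the lower quartile of all probe sets.

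**Figure D3:**
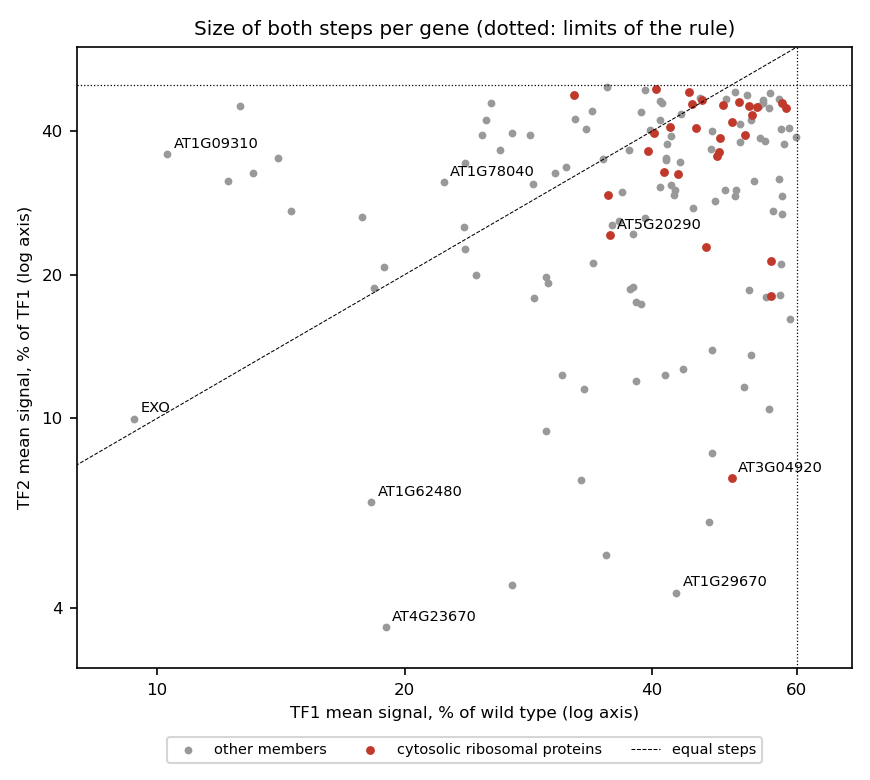
Mean TF1 signal as a percent of wild type against mean TF2 signal as a percent of TF1 for each of the 142 members, both on log axes, with cytosolic ribosomal protein genes in red, dotted lines at the limits of the rule and a dashed line where both steps are equal. AT1G09310 lies far to the left, at 10.3% and 35.8%, and AT1G29670 low, at 42.8% and 4.32%.

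Genes of cytosolic ribosomal proteins made up the largest group with a common role, 29 of the 142 members. They were found with a list of 233 loci in 80 protein families, written from general knowledge after the members had been seen, so the counts describe the set and are not independent evidence. The list had 132 genes with a probe set of their own, in 59 families. The 29 members came from 25 families: 10 of 48 measured small-subunit genes, 15 of 71 large-subunit genes and 4 of 13 genes of the acidic stalk proteins. TF1 means of the 29 were 32.2% to 58.1% of wild type (median 47.9%), and TF2 means 3.75% to 26.3% (median 18.3%). Signals may be shared between near-identical copies, so the value of any single copy is uncertain.

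AT5G20290, which encodes small-subunit protein S8, read 1254 and 1012 in Col-0 pollen, 368 and 438 in TF1 pollen and 103 and 92.3 in TF2 pollen. AT3G60245, for large-subunit protein L37a, read 1196 and 1430.0 in Col-0 pollen, 796 and 731 in TF1 pollen and 375 and 309 in TF2 pollen, and AT3G49910, for L26, read 969 and 1010.2 in Col-0 pollen, 455 and 429.7 in TF1 pollen and 223 and 180.1 in TF2 pollen. In all 3 genes the replicates of a group were close, while the order of the groups was set by the rule. AT5G20290 had the deeper change, -3.40 in TF2 against wild type (SE 0.19, limma adjusted p = 1.46e-07), against -1.91 for AT3G60245 and -2.25 for AT3G49910.

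AT3G04920, for S24, chosen after its values were seen, kept 3.75% of wild type in TF2, with 155 and 182 in Col-0 pollen, 80.6 and 88.1 in TF1 pollen and 6.28 and 6.36 in TF2 pollen. AT5G47930, for S27, also chosen after its values were seen, read 107 and 8.93 on the TF2 arrays, so that its level there is poorly fixed. The stalk protein members were AT1G01100 (P1), AT2G27720 and AT5G40040 (P2) and AT4G25890 (P3). AT1G01100 was the brightest of them, at 489 and 512 in Col-0 pollen, 173 and 229.9 in TF1 pollen and 58.4 and 101 in TF2 pollen.

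The 103 measured ribosomal protein genes outside the set also had mostly lower signals in both lines. Of all 132, TF1 means were below wild type in 126, TF2 means below TF1 in 96, and both steps went down in 93. The same counts over all probe sets are not given here. For all probe sets tested, the median log2 change was -0.02 in TF1 against wild type and 0.02 in TF2 against TF1. The 29 members are in each of these counts because the rule required both steps of them. TF2 means were above wild type in 8 of the 132, and the rule lets no member be among those. In limma 117 were tested, the 29 members among them. In TF1 against wild type 60 fell (51.3%, where 9.64% of all probe sets tested did) and 0 rose (11.9% of all), 78 and 0 at an unadjusted p under 0.05, with a median of -0.97. In TF2 against wild type 92 fell (78.6%, against 16.0% of all) and 1 rose (14.8% of all), with a median of -1.57. The 1 that rose was AT2G47570, from a wild-type signal of 39.0 and 5.02 to 103 and 148 in the TF2 line (log2 change 2.29, limma adjusted p = 0.0122). Between the lines 25 were lower in TF2 (21.4%, against 3.8% of all), 20 of them members, and 0 were higher (0.853% of all), with a median of -0.54. The 88 tested genes that were not members had medians of -0.91, -1.25 and -0.35. Of these 88, 41, 63 and 5 were called lower, where 9.64%, 16.0% and 3.8% of all probe sets tested were. The rule chose the 29 members by these contrasts, so they raise the shares and deepen the medians of the 117. Without the intensity trend the counts in TF1 against wild type and between the lines were 6 and 3 of 117. Of all 11373 probe sets tested 381 and 156 were lower in that fit, so the excess of ribosomal genes was much smaller. Both counts were also lower with 1 wild-type or TF1 array left out. Between the lines, the fit on those 4 arrays alone called 6, where 215 of all probe sets tested were lower. The median signal of the 132 was 256 and 233 in Col-0 pollen, 112 and 124 in TF1 pollen and 77.5 and 87.1 in TF2 pollen. Their summed share of the array's total signal was 0.792% and 0.805%, 0.285% and 0.292%, and 0.178% and 0.179% in that order.

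**Figure D4:**
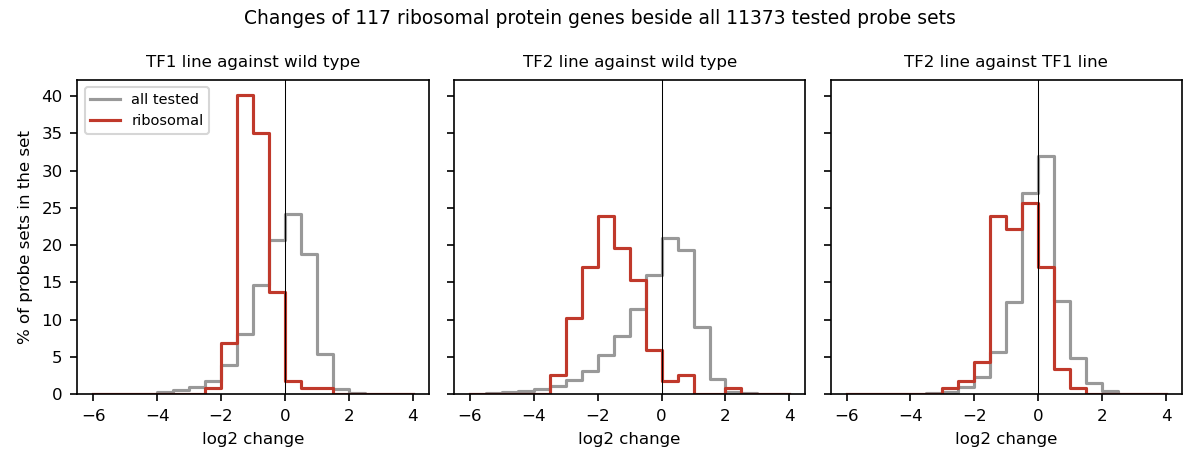
Distribution of log2 changes of the tested ribosomal protein genes beside that of all 11373 tested probe sets, as percent of genes per bin, for each of the 3 comparisons. The ribosomal medians were -0.97, -1.57 and -0.54, against -0.02, 0.05 and 0.02 over all. The 29 members, which the rule chose by these contrasts, are among the ribosomal genes. Without them the ribosomal medians were -0.91, -1.25 and -0.35.

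Compared with the other nuclear probe sets at the same wild-type floor, ribosomal proteins made up 29 of 142 stepwise genes (20.4%). They were 47 of 383 probe sets that were lower in both lines with a second step under 2-fold (12.3%), 4 of 79 lower in the TF2 line alone (5.06%) and 100 of all 2382 at the floor (4.198%). Median wild-type signals of the first 3 sets were 208, 205 and 204, and that of all probe sets at the floor was 248. No gene of the green-tissue marker list was in the stepwise set, and 7 were in the set with a second step under 2-fold. These shares are a description, since the sets were drawn from the same signals, and LHCB4.2 of that list met the thresholds but was left out by name.

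Genes of translation and protein folding formed a smaller group of 8 members. It held AT5G19510 and AT5G12110, of elongation factor 1B, AT4G10480, of the nascent polypeptide-associated complex, AT5G44320, of initiation factor 3, ALATS, the alanyl-tRNA synthetase, AT5G20890 and AT3G18190, subunits of the CCT chaperonin, and AT3G12050, of the family of Hsp90 activator Aha1. TF1 means were 18.9% to 57.6% of wild type and TF2 means 3.91% to 21.2%. ALATS read 196 and 222 in Col-0 pollen, 119.6 and 67.8 in TF1 pollen and 8.14 and 43.6 in TF2 pollen. Its TF2 replicates were far apart, and the step between the lines did not pass the threshold (limma adjusted p = 0.0863). Small heat shock protein genes AT1G54050 and AT2G29500 were members as well, at 14.8% and 12.5% of wild type in TF2. Their TF2 replicates were far apart, at 75.3 and 10.9 and at 53.4 and 6.71. Neither passed the threshold in TF1 against wild type or between the lines (limma adjusted p = 0.0596 and 0.101 between the lines).

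Cell wall and pectin genes numbered 11, with TF1 means at 9.38% to 54.9% of wild type and TF2 means at 0.937% to 25.4%. Beside EXO and AT1G78040 they were the pectin methylesterase genes AT5G51490, AT3G49220 and ATPMEPCRD, the pectate lyase gene AT3G27400, the pectin methylesterase inhibitor gene AT5G62350, the DUF642 gene AT2G41800, the cellulase-family gene GH9B7, and TBL38 and TBL25 of a family that acetylates wall polysaccharides. ATPMEPCRD read 130.0 and 155 in Col-0 pollen, 90.8 and 65.2 in TF1 pollen and 46.7 and 25.8 in TF2 pollen. GH9B7 read 155 and 164 in Col-0 pollen, 87.6 and 87.5 in TF1 pollen and 54.1 and 12.8 in TF2 pollen, TBL38 read 165 and 162 in Col-0 pollen, 45.0 and 77.7 in TF1 pollen and 17.5 and 27.3 in TF2 pollen and TBL25 read 124 and 122 in Col-0 pollen, 49.4 and 55.4 in TF1 pollen and 21.0 and 9.75 in TF2 pollen. These 4 were dim members, and none of them passed the threshold between the lines. In TF1 against wild type TBL38 passed it, with an adjusted p of 0.0496 in limma.

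Mitochondrial proteins had 9 genes in the set. CYTC-1, which encodes the electron carrier cytochrome c, was the brightest, at 972 and 939.6 in Col-0 pollen, 318 and 328 in TF1 pollen and 150.5 and 134 in TF2 pollen. Its replicates were close in every group, and it changed by -1.53 in TF1 and by -2.66 in TF2 against wild type (limma adjusted p = 8.21e-05 and 4.73e-07). The others were AT3G10860, of the cytochrome bc1 complex, AT2G42310, AT5G18800 and AT5G47890, of complex I, AT4G29480, of ATP synthase, AT2G20420, of succinyl-CoA ligase, and AT2G35120 and AT1G32470, H proteins of the glycine cleavage system. TF2 means of the 9 were 4.70% to 26.7% of wild type. AT2G07741 and AT2G07739 lie in the copy of mitochondrial DNA on chromosome 2, and their probe sets cannot be taken to separate nuclear from mitochondrial transcripts. AT2G07741 read 628 and 549.9 in Col-0 pollen, 55.8 and 92.8 in TF1 pollen and 37.3 and 29.7 in TF2 pollen, and AT2G07739 read 319 and 346 in Col-0 pollen, 40.7 and 40.4 in TF1 pollen and 3.52 and 22.0 in TF2 pollen.

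Carbon metabolism had 4 members. cICDH, the cytosolic isocitrate dehydrogenase, read 671 and 739.6 in Col-0 pollen, 250.0 and 336 in TF1 pollen and 101 and 103 in TF2 pollen, and TPI, triosephosphate isomerase of glycolysis, read 484 and 531 in Col-0 pollen, 261 and 268 in TF1 pollen and 158 and 93.2 in TF2 pollen. Both were lower in the TF2 line than in the TF1 line (limma adjusted p = 0.00163 and 0.0271). AT1G62660, of vacuolar invertase, and AT5G57655, of xylose isomerase, were at 17.3% and 10.4% of wild type in TF2.

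Plastid proteins encoded in the nucleus had 7 genes in the set, with TF2 means at 3.84% to 24.9% of wild type. NANA, a chloroplast aspartyl protease, read 264 and 386 in Col-0 pollen, 112 and 157 in TF1 pollen and 13.0 and 20.2 in TF2 pollen. CaS, a thylakoid protein of calcium signalling, read 202 and 183 in Col-0 pollen, 77.8 and 82.9 in TF1 pollen and 8.64 and 51.7 in TF2 pollen. The TF2 replicates of CaS were far apart and those of NANA closer. The others were AT1G51400, of photosystem II, AT2G43030 and AT5G65220, of the plastid ribosome, AT3G52960, a peroxiredoxin, and AT5G19940, of the plastid lipid-associated family.

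Among lipid-related genes, 3 GDSL lipase genes and the lipid transfer family genes AT4G22470 and AT3G22620 were members, with TF2 means at 1.85% to 23.8% of wild type. The peptidase genes were scpl48, a serine carboxypeptidase-like gene, with 385 and 375 in Col-0 pollen, 93.9 and 86.2 in TF1 pollen and 8.24 and 53.5 in TF2 pollen, and ARA12, a subtilisin-like protease gene, with 157 and 182 in Col-0 pollen, 86.1 and 107 in TF1 pollen and 40.8 and 20.5 in TF2 pollen. The second TF2 array of scpl48 was well above the first, so its step between the lines did not pass the threshold (limma adjusted p = 0.0979).

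The remaining members with a symbol were dim. AIM1, a multifunctional enzyme of peroxisomal fatty acid oxidation, read 157 and 148 in Col-0 pollen, 69.2 and 75.1 in TF1 pollen and 9.10 and 11.0 in TF2 pollen, and PAP20, a purple acid phosphatase, read 130.0 and 189 in Col-0 pollen, 78.4 and 43.7 in TF1 pollen and 8.02 and 6.62 in TF2 pollen. For both, TF1 against wild type did not pass the threshold and TF2 against TF1 did (limma adjusted p = 0.0221 and 0.0482). PR-1-LIKE, of the secreted CAP protein family, read 145 and 136 in Col-0 pollen, 70.9 and 63.0 in TF1 pollen and 28.0 and 10.3 in TF2 pollen. RING1, a RING-finger ubiquitin ligase gene, read 131 and 133 in Col-0 pollen, 47.6 and 108 in TF1 pollen and 22.9 and 2.16 in TF2 pollen, and its replicates spread widely in both lines. RALFL22, which encodes a RALF signalling peptide, read 105 and 122 in Col-0 pollen, 7.15 and 46.7 in TF1 pollen and 5.49 and 6.74 in TF2 pollen, where a TF1 array lay close to the TF2 arrays.

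At the limits of the rule, members differed little from genes left outside. Just inside the limit of 0.6 for TF1 over wild type were AT2G44500, at 59.9%, RING1, at 58.9%, and the GDSL lipase gene AT5G42170, at 58.7%. Just outside were AT1G15270 and AT5G20160, each at 60.1%, and TIL, at 60.2%. For TF2 over TF1 the members AT5G19940, AT4G34670 (ribosomal protein S3a) and AT4G10480 had 49.4%, 48.9% and 48.6%. Just outside were AT4G39200, AT4G17390 and AT5G27700, at 50.3%, 50.5% and 50.5%, which are all ribosomal protein genes too.

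Members lay on all 5 nuclear chromosomes, with 33, 20, 31, 21 and 37 on chromosomes 1 to 5. As shares these were 23.2%, 14.1%, 21.8%, 14.8% and 26.1%, beside 25.8%, 16.5%, 20.5%, 14.6% and 22.5% of all nuclear probe sets with 1 gene. AT1G29660 and AT1G29670, both GDSL lipase genes, are adjacent coding genes, and 1 coding gene lies between AT3G06680 and AT3G06700, both of ribosomal protein L29, and between AT2G43030 and ATPMEPCRD. Near-identical copies may share signal, which was not tested.

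Of 26 gene lists for pathways, families and cell types matched by gene symbol, 25 held no member, and EXO was the member on the brassinosteroid list. Of the 142 members 124 carry only a locus code, so the lists miss ribosomal, LEA-type and small heat shock members named above. The symbol-matched ribosomal list had 1 measured gene, and those of aquaporins, fasciclin proteins and lipid transfer proteins had 0. The count of lists without a member is therefore not read as a result. SWEET8, EXLA1, XTH19, LHCB4.2 and LCR69 are on other lists and were left out by name, and the annotation leaves few measured genes per list. Of the lists other than cell type markers, 11 had at least 5 tested genes. In TF2 against wild type, where 16.0% of all probe sets tested fell and 14.8% rose, 4 of 6 touch and calcium genes fell, as did 3 of 5 heat shock genes, 3 of 5 auxin response genes, 2 of 5 LEA and cold-regulated genes and 1 of 6 stress-type transcription factors, and none of these lists had a gene that rose. Among actin and tubulin genes 5 of 9 rose and 1 fell, and among histone and cell cycle genes 2 of 8 rose and 0 fell. Wall-loosening genes had 5 of 16 lower and 2 higher, redox enzymes 4 of 14 and 0, sugar transport and sucrose cleavage genes 2 of 13 and 2, and bZIP factors 1 of 10 and 2. In TF1 against wild type, where 9.64% of all fell and 11.9% rose, 6 of 9 actin and tubulin genes rose and 1 fell, and wall-loosening genes had 4 lower and 4 higher. After quantile normalization actin and tubulin genes had 1 call in TF1, higher, and 1 in TF2, lower. The heat shock genes had 0 calls by limma in TF1 against wild type, 1 at an unadjusted p under 0.05, and 3 of 5 were lower in TF2 than in TF1, where 3.8% of all were.

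Some controls of the array moved in the same order as the members, and others did not. For actin, signals at the 3′ end were 595 and 699.8 in Col-0 pollen, 220.2 and 231 in TF1 pollen and 99.6 and 138 in TF2 pollen. For GAPDH they were 573 and 731, 211 and 238, and 140.0 and 138 in that order, and those of the 5S ribosomal RNA probe set 584 and 447, 206 and 128, and 72.3 and 38.2. Probe sets for the middle and 5′ stretches of actin did not follow this order. A middle actin probe set read 340.0 and 328, 214 and 219, and 220.6 and 257, and a 5′ probe set 131 and 201, 55.7 and 128, and 90.6 and 64.1. A second 5′ probe set went up, from 104 and 84.8 in Col-0 pollen to 102 and 172 in TF1 pollen and 229 and 349 in TF2 pollen. In all, 2 of 6 actin probe sets, both at the 3′ end, and 5 of 5 for GAPDH stepped down with no overlap between groups. Nothing is read from these counts, since the share of all probe sets that stepped down is not given here. The 25S ribosomal RNA probe set went the other way, at 478.2 and 324, 260.2 and 2749, and 9968 and 8717. Ubiquitin did not show this order, with 5354 and 4368, 5770.0 and 4714, and 5613 and 5892, and the cre spike-in control, a labelled control added at hybridization, overlapped between groups at 15862 and 12577, 13109 and 17349, and 11104 and 14932. Their part in the members' result was not tested.

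**Figure D5:**
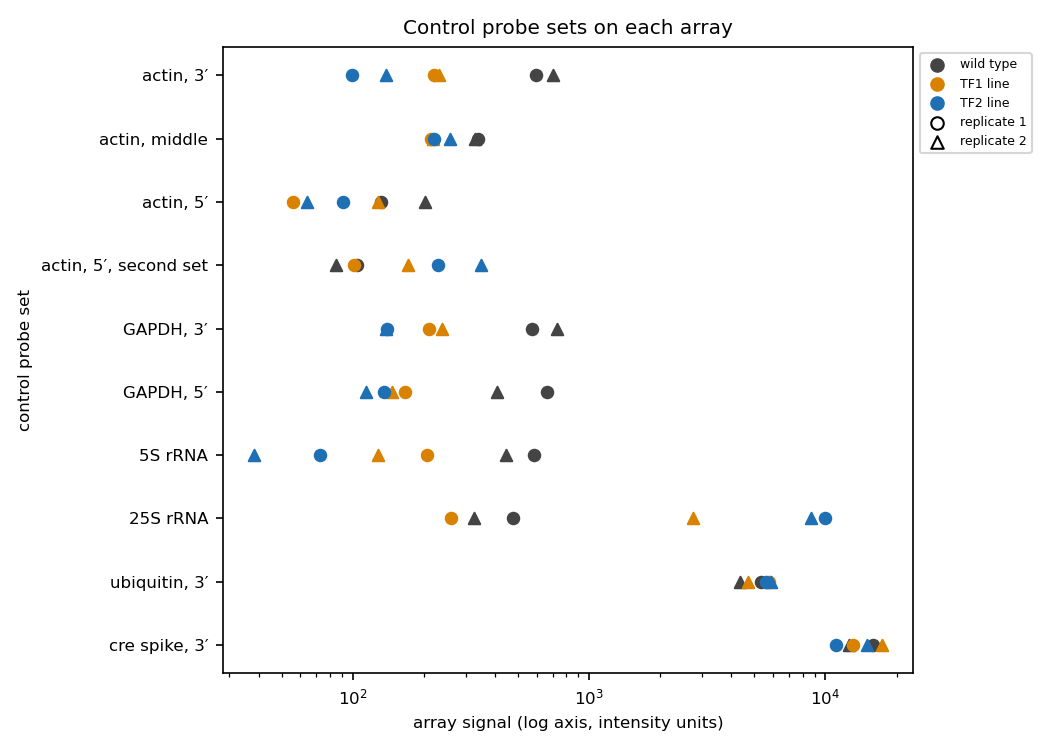
Signals of 10 array control probe sets on each array, in intensity units on a log axis, with a point per array and the arrays grouped as wild type, TF1 line and TF2 line. The 3′ probe set of actin, those of GAPDH and that of 5S ribosomal RNA stepped down from wild type to TF1 to TF2, the middle and 5′ probe sets of actin, ubiquitin and the cre spike-in did not, and 25S ribosomal RNA was highest in the TF2 line, at 9968 and 8717.

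Markers of green tissue also differed between groups, but in another pattern. Of 11 tested green-tissue genes 10 fell in TF1 and 10 in TF2 against wild type (9.64% and 16.0% of all probe sets tested did), with medians of -3.02 and -3.03, and 0 differed between the lines in limma, 2 at an unadjusted p under 0.05, with a median of -0.24. The 13 measured genes summed to 6837 and 6496 in Col-0 pollen, 727 and 779.9 in TF1 pollen and 745 and 854 in TF2 pollen, so the lines did not step apart. THO1 is among the 13 through a synonym alone and cannot be taken as a green-tissue marker. It read 15.7 and 37.1 in Col-0 pollen, 47.6 and 11.5 in TF1 pollen and 53.6 and 23.6 in TF2 pollen, and the filter did not keep it. Markers of the vegetative cell were higher in both lines, with 8 of 13 tested called in TF1 and 7 in TF2, and 2 higher in TF2 than in TF1, where 11.9%, 14.8% and 0.853% of all were. After quantile normalization these counts were 4, 3 and 0, with 1 lower in each line. The 3 sperm-cell genes summed to 647 and 773, 1426 and 1391, and 1469 and 1281, also without a step between the lines. Tapetum and anther wall genes summed to 98.7 and 139, 68.6 and 109, and 148 and 142. The list for flowers and other sporophytic organs summed to 292 and 305, 553 and 465, and 169 and 221. In that list only BAN and DFR had both TF1 arrays above both wild-type arrays, and SPT, UGT80B1 and UFO did not. BAN read 203 and 176 in TF1 pollen and 15.4 and 4.77 in TF2 pollen. The sum is therefore not read as a signal of flower tissue. The part of any of these marker lists in the members' signals was not tested.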

How the data were processed

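Total RNA of mature pollen was measured on 6 arrays, 2 per group, and groups and replicate numbers came from the sample labels. The authors deposited linear signal intensity per probe set, and MAS5 and GCOS are named per the submitters' processing notes, whose versions the sources do not give. The scaling was read from the values and kept. The number of arrays limits the precision, and the table carries no detection calls.

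Of 22810 probe sets 13513 had 1 gene in the annotation used, 503 several and 8730 none listed, and 64 were array controls. RefSeq's table (assembly TAIR10.1) matched 13508 and gave names and gene order only. Intensities were tested as log2(intensity + 10.3), the pseudocount being their 25th percentile, over the 11373 probe sets whose mean log2 value was at or above the median. All 6 arrays were fitted together with limma 3.58.1 (R 4.3.3; lmFit and eBayes with an intensity trend), two-sided, with Benjamini-Hochberg adjustment over all probe sets at 0.05. The fit was tested on simulated data whose spread was set by signal level, after simulations with each probe set's own spread had recovered few of the changes put in. Summaries used Python 3.11.15 with pandas 2.3.3.

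Named members were the 12 brightest in wild type, the 8 with the lowest TF2 share of wild type, those with a symbol or on a list, and the 3 nearest each side of a threshold. The members and lists were chosen with earlier results of these data known, and the ribosomal list and the roles were written after the members were seen. Alternatives covered the pseudocount, filter, trend, scaling, thresholds of the rule, replicate block and leaving out each array. No sequences were available to print or search, so promoters and proteins are not analysed here.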

Additional observations from a re-analysis of the deposited data

Results flagged for a closer look

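Among the array's control probe sets, which stayed out of every test, 2 read far above wild type in a mutant line. The 25S ribosomal RNA probe set had a mean of 9342 in the TF2 line, against 478.2 and 324 on the wild-type arrays, and its TF1 arrays read 260.2 and 2749. The probe set for U12639 had a mean of 1870.2 in the TF1 line, from 2141 and 1599.7, against 2.15 and 35.8 in wild type and 26.4 and 19.0 in the TF2 line. No member of the stepwise set was measured by these probe sets.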

How the results depend on the processing

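The number of members, 142, was 66 at a wild-type floor of 200, and between 98 and 192 under the other thresholds and scalings. Leaving out 1 array gave 139 to 178. Quantile normalization gave 103, of which 94 were among the 142. It moved the median change of all probe sets to 0.11 in TF1 and 0.14 in TF2 against wild type, and that of the members to -0.98 and -2.43. Median centring moved these to 0.14 and 0.16, and -0.99 and -2.48. Without the intensity trend, probe sets changed numbered 456 for TF1 and 2185 for TF2 against wild type and 175 between the lines, in place of 2453, 3506 and 529. With 1 array left out they ranged from 1266 to 2817, from 2113 to 3543 and from 217 to 589. Between the lines, the fit on those 4 arrays alone gave 274. Ribosomal protein genes called lower were 60, 92 and 25, and with 1 array left out ranged from 21 to 73, 67 to 90 and 4 to 27. Without the trend they were 6 in TF1 against wild type and 3 between the lines, and 6 between the lines on those 4 arrays alone. Over all probe sets tested 381, 156 and 215 were lower in these fits. The replicate block gave 2521, 3558 and 593 probe sets and 65, 137 and 63 members, where the same-numbered arrays share only a number (correlations of deviations of 0.008, 0.022 and 0.002). The causes of these shifts were not tested. Dim TF2 signals limit the size of the second step, and 2 arrays a group limit every p-value.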
